A study of Mus musculus with 12 samples.

Results

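Sebaceous glands sit beside hair follicles and make sebum, an oily mix of triacylglycerols, wax esters, sterol esters and free fatty acids. Their cells, the sebocytes, fill with lipid droplets as they mature and then burst to release the contents. Fatty acids are desaturated and lengthened, part of them are reduced to fatty alcohols, and wax synthases join alcohols and acids into wax esters. Described here are 10 mouse genes listed for sebocyte lipid synthesis and secretion, *Scd1*, *Scd3*, *Scd4*, *Elovl3*, *Awat2*, *Mc5r*, *Cidea*, *Far2*, *Cyp2g1* and *Mgst1*, out of 52636 genes in the deposited count table. Not all of them act in the steps just named. They were chosen by name, and also because their counts in these 12 libraries were already known to differ between the groups, so their levels and fold changes below are a description without a test. All 10 were found by their Ensembl identifier, and all 10 passed the filter on low counts, which left 18822 genes.

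The libraries came from full-thickness dorsal skin of C57BL/6 mice aged 3 months, taken on day 14, with 3 mice in each of 4 groups. KO mice carried the Cdc42-/- genotype, made with floxed *Cdc42* alleles and a Cre driven by the keratin K5 promoter, which acts in epidermal and follicle keratinocytes and not in every cell of the skin. WT mice carried floxed alleles without that Cre. The WT and KO groups received the vehicle, saline with HPMC, on shaved skin. Zinc oxide nanoparticles went onto the skin of the other 2 groups, labelled WT+ZnO NPs and KO+ZnO NPs. Values are CPM, read counts scaled to a common library total, adjusted by TMM factors and given in the order of replicates 1, 2 and 3, and the totals behind them ran from 21076320 to 28867802 counts per library.

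Several facts of the libraries bear on every comparison. *Cdc42* itself was at 606.1 to 628.4 CPM in WT and 415.4 to 464.0 in KO, but at 310.7 to 350.1 in the WT+ZnO-labelled libraries, which goes against that label, and at 313.5 to 453.0 in the KO+ZnO-labelled ones. Groups given ZnO NPs are therefore named by their label. Y-linked transcripts were present, at 191.7 to 241.7 CPM summed over 4 genes, in 5 libraries: all 3 labelled WT+ZnO NPs, KO replicate 1 and KO+ZnO NPs replicate 1. They were at 0 in all 3 WT libraries, so a difference between WT and WT+ZnO NPs cannot be told apart from a difference between mice with and without a Y chromosome. The study describes the KO mice as female. The keratins of the basal epidermis were present throughout, with *Krt5* at 1389.6 CPM or more and *Krt14* at 2213 CPM or more in every library, while *Krt1* and *Krt10* of the differentiated layers varied between groups (given further on). In whole skin, fewer sebocytes and less RNA per sebocyte cannot be told apart.

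The 3 desaturase genes lie on the same chromosome, and the sequences before the RefSeq starts of *Scd3* and *Scd4* are shown because these neighbours, which share transcript sequence, differed in opposite directions between WT+ZnO NPs and WT. RefSeq promoter windows were at hand for 5 of the 10 genes, 7 windows in all, on GRCm38.p6. Only the 250 bases before the annotated start are given, 5′ to 3′, and capitals in the first pair mark runs of 8 or more identical bases in a global alignment of both windows. The *Scd3* window is chr19:44203038-44203287 and the *Scd4* window chr19:44333076-44333325, both on the plus strand. The RefSeq starts lie downstream of the GENCODE starts given further on, so most of the *Scd4* window and the last bases of the *Scd3* window lie inside the genes as GENCODE annotates them.
Scd3: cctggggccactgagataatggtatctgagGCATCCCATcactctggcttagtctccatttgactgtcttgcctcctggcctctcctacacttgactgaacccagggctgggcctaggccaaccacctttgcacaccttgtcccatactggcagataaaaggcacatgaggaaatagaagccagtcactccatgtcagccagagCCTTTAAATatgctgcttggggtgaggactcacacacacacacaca
Scd4: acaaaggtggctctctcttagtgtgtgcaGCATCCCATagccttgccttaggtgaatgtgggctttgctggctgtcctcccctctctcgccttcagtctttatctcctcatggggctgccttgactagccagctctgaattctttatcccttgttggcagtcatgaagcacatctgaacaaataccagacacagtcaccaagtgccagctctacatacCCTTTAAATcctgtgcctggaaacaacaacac
Of 231 aligned base pairs, 154 (66.7%) were identical, with 2 runs of at least 8 and a longest run of 9. The run CCTTTAAAT began 46 bases before the *Scd3* start and 32 before that of *Scd4*, and 0.423% of 32851 RefSeq windows of the same length held it on either strand. The other run, GCATCCCAT, began 220 and 221 bases before the starts and was held by 0.177% of windows. Motifs were searched on both strands, namely the CCAAT box, the TATAAA box, the E-box CACGTG and the sterol response element TCACNCCAC, held by 33.8%, 12.4%, 6.02% and 1.05% of all windows. None was found in the *Scd3*, *Scd4*, *Far2* or *Mgst1* windows.

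*Awat2* has 2 annotated starts, and both of its windows held the CCAAT box. The upstream window of *Awat2*, chrX:100442718-100442967 on the minus strand, is printed with the box in capitals, 85 to 81 bases before the start.
Awat2: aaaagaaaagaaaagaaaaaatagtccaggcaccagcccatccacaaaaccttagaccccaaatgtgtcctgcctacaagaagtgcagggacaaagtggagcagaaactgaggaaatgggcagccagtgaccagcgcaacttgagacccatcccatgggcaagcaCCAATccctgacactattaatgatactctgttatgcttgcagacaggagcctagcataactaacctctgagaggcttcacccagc
The box in the second window lay 121 to 117 bases before its start, on the opposite strand.

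Desaturases introduce double bonds into fatty acids. *Scd1* (ENSMUSG00000037071, chromosome 19 from 44394455 to 44407879, minus strand) encodes the main stearoyl-CoA desaturase of skin. It was at 2728, 3560.2 and 4369 CPM in WT and 7047, 2979.8 and 7713 in KO. In the WT+ZnO-labelled libraries it was at 5983, 4061 and 3610.4, and in the KO+ZnO-labelled ones at 9198, 1704 and 10983. The groups overlapped in every comparison, and KO replicate 2 and KO+ZnO NPs replicate 2 lay far below the other replicates of their groups. The log2 fold changes were 0.73 ± 0.58 (SE) for KO against WT, 0.36 ± 0.58 for WT+ZnO NPs against WT and 0.30 ± 0.58 for KO+ZnO NPs against KO, each with n = 3 per group. Without KO+ZnO NPs replicate 3 the last became -0.10.

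*Scd3* (ENSMUSG00000025202, chromosome 19 from 44203269 to 44244016, plus strand), a desaturase known for its restriction to sebaceous glands and a few other sites, was at 111, 52.0 and 74.9 CPM in WT and 8.59, 4.30 and 5.15 in KO, a 13.2-fold lower mean in KO. It was at 411, 273 and 242 in the WT+ZnO-labelled libraries and 59.7, 27.1 and 179 in the KO+ZnO-labelled ones. No KO library reached any library of another group, and the WT+ZnO-labelled libraries lay above all the rest. The log2 fold changes were -3.72 ± 0.64 for KO against WT, 1.96 ± 0.58 for WT+ZnO NPs against WT, 3.88 ± 0.64 for KO+ZnO NPs against KO and -1.80 ± 0.58 for KO+ZnO NPs against WT+ZnO NPs. *Scd3* was the only one of the 10 genes whose libraries were separate in all 4 comparisons, and the share of all genes so separate was not computed. Without KO+ZnO NPs replicate 3, its difference from KO was 2.87.

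*Scd4* (ENSMUSG00000050195, chromosome 19 from 44333092 to 44346743, plus strand), a desaturase gene best known from heart, was close to the lower limit of detection. WT held 2.48, 1.61 and 1.40 CPM, against 0.723, 0.603 and 0.528 in KO, 0.320, 0.640 and 0.435 in the WT+ZnO-labelled libraries and 0.262, 0.705 and 0.435 in the KO+ZnO-labelled ones. All 3 WT libraries lay above the other 9, which overlapped with one another. Its log2 fold changes were -1.56 ± 0.40, -1.97 ± 0.41 and -0.41 ± 0.43 for KO, WT+ZnO NPs and KO+ZnO NPs against their controls. Per kilobase of exons, the WT means were 726 ± 168 CPM for *Scd1*, 22.3 ± 8.35 for *Scd3* and 0.486 ± 0.151 for *Scd4* (SD, n = 3), in that order without overlap. The transcripts of these genes share sequence with each other and with *Scd2*: 4.56% of the 50-base stretches of *Scd1*, 6.57% of *Scd3* and 5.54% of *Scd4* occur in another gene. At such a share and at these levels, counts of *Scd4* may hold reads of its abundant relatives, which was not tested.

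*Elovl3* (ENSMUSG00000038754, chromosome 19 from 46131897 to 46135694, plus strand) encodes an elongase that lengthens saturated and monounsaturated fatty acids to very long chains. It was at 69.9, 26.8 and 80.7 CPM in WT and 53.8, 15.5 and 26.9 in KO, and these groups overlapped. The log2 fold change was -0.88 ± 0.59, or -1.48 without KO replicate 1 and -0.54 without KO replicate 2. The libraries labelled WT+ZnO NPs held 486, 179.6 and 207 and the KO+ZnO-labelled ones 161, 132 and 359. Every library given ZnO NPs lay above every vehicle library, in both labelled genotypes. The mean was 4.92-fold higher in WT+ZnO NPs than in WT (log2 fold change 2.30 ± 0.61, or 1.71 without WT+ZnO NPs replicate 1). In KO+ZnO NPs the mean was 6.78-fold higher than in KO (2.76 ± 0.62, or 2.21 without KO+ZnO NPs replicate 3 and 3.36 without KO replicate 1). No other member split the libraries by treatment in this way, and the share of all genes that did was not computed.

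Wax ester synthesis was represented by 2 genes whose levels differed in pattern. *Far2* (ENSMUSG00000030303, chromosome 6 from 148047259 to 148182758, plus strand) encodes a fatty acyl-CoA reductase that makes the fatty alcohols of wax esters. It was at 197, 95.3 and 259.6 CPM in WT, 92.5, 34.2 and 46.8 in KO, 1018, 412 and 410.1 in the WT+ZnO-labelled libraries and 279, 169 and 820.2 in the KO+ZnO-labelled ones. KO lay below WT, narrowly for KO replicate 1, and each group given ZnO NPs lay above its own control, with log2 fold changes of -1.67 ± 0.64, 1.74 ± 0.64 and 2.87 ± 0.67. Without WT+ZnO NPs replicate 1 the second was 1.16, and without KO+ZnO NPs replicate 3 the last was 1.98. *Far2* overlaps *Ergic2*, *Far2os1* and *Far2os2* on the opposite strand, and 10.8% of its 50-base stretches occur in other transcripts, so some of its counts may be lost or shared.

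*Awat2* (ENSMUSG00000031220, chromosome X from 100402221 to 100442717, minus strand) encodes an acyl-CoA wax alcohol acyltransferase, which joins these alcohols to fatty acids. WT held 34.0, 26.9 and 28.6 CPM and KO 13.1, 5.78 and 8.01, with no overlap. The libraries labelled WT+ZnO NPs held 25.9, 7.81 and 8.46, also all below WT. Those labelled KO+ZnO NPs ranged most widely, at 18.6, 8.06 and 76.7. Its log2 fold changes were -1.73 ± 0.73 for KO against WT, -1.08 ± 0.72 for WT+ZnO NPs against WT and 1.94 ± 0.74 for KO+ZnO NPs against KO. The last rested on KO+ZnO NPs replicate 3, without which it was 0.59. The second was -1.87 without WT+ZnO NPs replicate 1 and -0.80 without WT+ZnO NPs replicate 2. Between WT+ZnO NPs and WT, *Awat2* was lower and *Far2* higher.

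*Mc5r* and *Cidea* both lie on chromosome 18. *Mc5r* (ENSMUSG00000007480, chromosome 18 from 68337596 to 68342446, plus strand) encodes the melanocortin 5 receptor, through which melanocortin peptides act on sebaceous glands. It was at 5.96, 3.37 and 9.73 CPM in WT, 4.34, 1.89 and 2.51 in KO, 15.4, 12.7 and 11.0 in the WT+ZnO-labelled libraries and 10.1, 3.73 and 18 in the KO+ZnO-labelled ones. The only separation was that of WT+ZnO NPs above WT, with a log2 fold change of 1.04 ± 0.54, and KO+ZnO NPs replicate 2 fell among the KO libraries. The other log2 fold changes were -1.12 ± 0.55 for KO against WT and 1.86 ± 0.56 for KO+ZnO NPs against KO, or -0.68 without WT replicate 3 and 1.27 without KO+ZnO NPs replicate 3.

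*Cidea* (ENSMUSG00000024526, chromosome 18 from 67343604 to 67367785, plus strand) encodes a lipid droplet protein that helps droplets fuse and grow, and is used in sebocytes and brown fat. It was at 60.6, 32.8 and 75.8 CPM in WT, 25.7, 12.3 and 14.7 in KO, 159, 73.7 and 88.6 in the WT+ZnO-labelled libraries and 59.9, 47.2 and 246 in the KO+ZnO-labelled ones. KO lay below the other 3 groups without overlap, while WT and WT+ZnO NPs overlapped. The log2 fold changes were -1.68 ± 0.61 for KO against WT, 0.93 ± 0.60 for WT+ZnO NPs against WT and 2.74 ± 0.64 for KO+ZnO NPs against KO, the last 1.63 without KO+ZnO NPs replicate 3. Of 6 brown fat markers, which summed to between 44.2 and 202 CPM, *Ucp1* was at 0.22 CPM or less in every library. *Cox8b* was at 38.9, 26.9 and 32.2 CPM in WT, 23.6, 12.9 and 18.2 in KO, 115, 26.8 and 46.0 in WT+ZnO NPs and 32.6, 37.3 and 92.2 in KO+ZnO NPs, and *Cox7a1* at 20.0, 15.0 and 17.6, 15.7, 3.37 and 9.55, 69.6, 15.8 and 32.4 and 13.3, 26.2 and 45.9. Both were highest in the same library of each ZnO NP group as *Cidea*, which was also the library highest in the muscle markers given further on. *Ppargc1a*, at 11.6, 5.57 and 7.71 in WT+ZnO NPs and 5.02, 4.99 and 9.19 in KO+ZnO NPs, was also highest in these libraries. *Dio2*, at 5.76, 9.14 and 6.41 in WT+ZnO NPs and 6.02, 11.5 and 4.79 in KO+ZnO NPs, was highest in replicate 2 of both. *Otop1* was at 0.52, 0.274 and 0.514 in WT+ZnO NPs, highest where *Cidea* was highest. In KO+ZnO NPs it was at 0.393, 0.655 and 0.305, lowest where *Cidea* was highest. The part of brown fat in the level of *Cidea* was not tested.

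*Cyp2g1* (ENSMUSG00000049685, chromosome 7 from 26808892 to 26821205, plus strand), a cytochrome P450 gene best known from olfactory mucosa, was at 13.5, 9.51 and 69.8 CPM in WT, 4.38, 0.723 and 3.96 in KO, 107, 68.5 and 70.8 in the WT+ZnO-labelled libraries and 28.8, 24.6 and 125 in the KO+ZnO-labelled ones. Every KO library lay below every other library, but WT replicate 3 stood far above the other WT replicates and overlapped with WT+ZnO NPs. Its log2 fold change for KO against WT was -3.36 ± 0.94, and -1.93 without WT replicate 3. For KO+ZnO NPs against KO it was 4.30 ± 0.98, a 19.7-fold higher mean, and 3.17 without KO+ZnO NPs replicate 3. For WT+ZnO NPs against WT it was 1.41 ± 0.86, or 2.83 without WT replicate 3 and 0.98 without WT replicate 2.

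*Mgst1* (ENSMUSG00000008540, chromosome 6 from 138140316 to 138156755, plus strand) encodes a microsomal glutathione transferase that removes lipid peroxides. It was at 324, 362 and 393 CPM in WT and 140.4, 146 and 146 in KO, the tightest KO values of any member. The libraries labelled WT+ZnO NPs held 355, 232 and 264 and the KO+ZnO-labelled ones 227, 173 and 613. KO lay below every other library, and WT+ZnO NPs overlapped with WT. The log2 fold changes were -1.32 ± 0.39 for KO against WT, -0.34 ± 0.38 for WT+ZnO NPs against WT and 1.23 ± 0.39 for KO+ZnO NPs against KO, the last 0.49 without KO+ZnO NPs replicate 3.

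**Figure D1:**
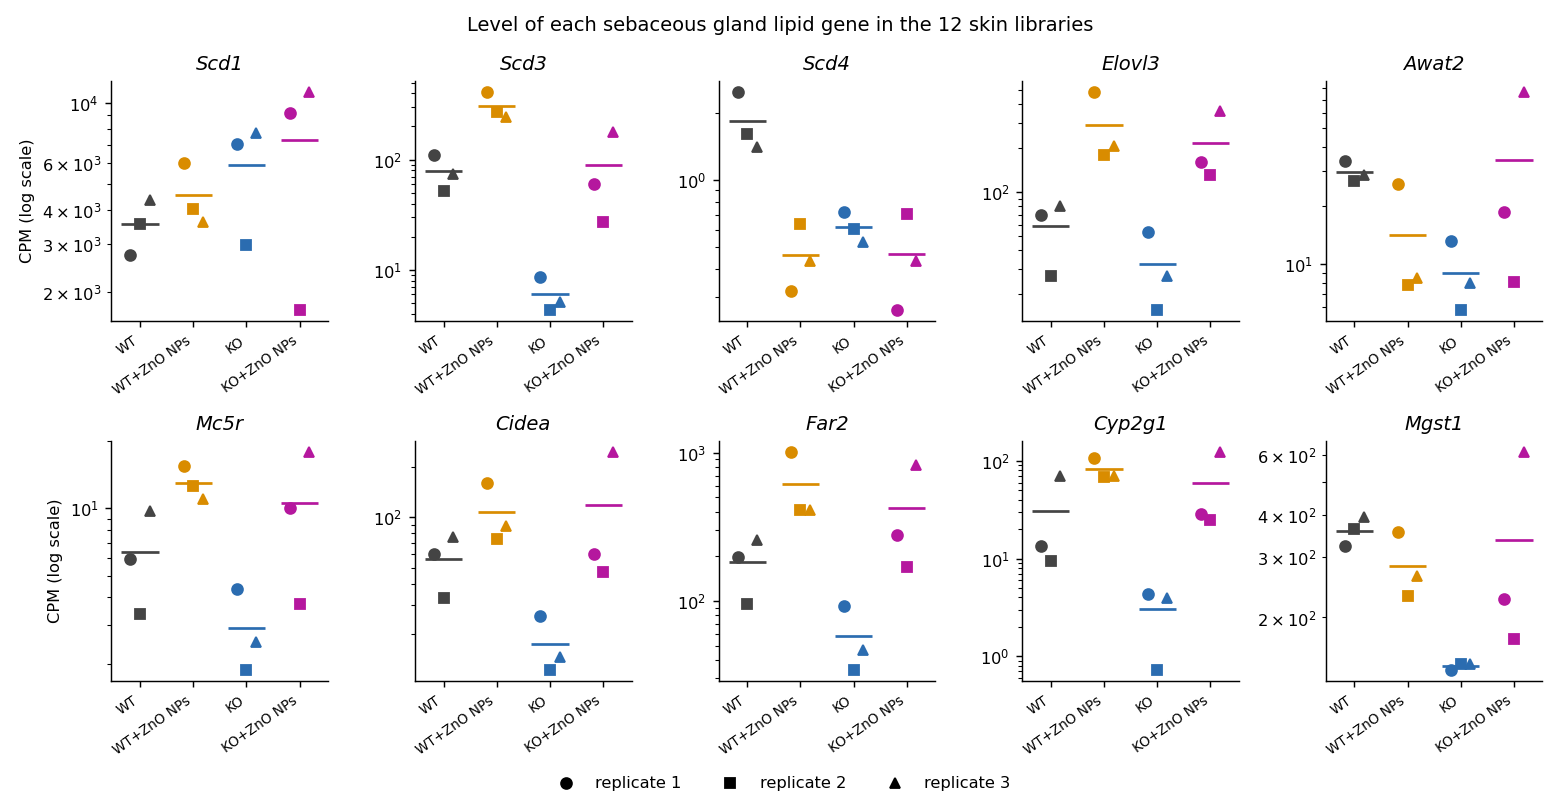
Level of each of the 10 genes in CPM (log scale, a separate range per panel) in the 12 skin libraries. Points are single libraries, their shape the replicate number, and horizontal lines the mean of 3. *Scd3* was lowest in KO without overlap, at 8.59, 4.30 and 5.15 CPM, and KO+ZnO NPs replicate 3 was the highest library of its group for 9 of 10 genes.

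Read over all members, KO and WT differed as follows. The median log2 fold change of the 10 genes for KO against WT was -1.61, beside 0.01 for all 18822 genes tested, and 9 of the 10 had a negative value, *Scd1* being the exception. In 7 genes the highest KO library was below the lowest WT library, *Scd3*, *Scd4*, *Awat2*, *Cidea*, *Far2*, *Cyp2g1* and *Mgst1*, where 19.9% of all genes tested lay so. At an adjusted p below 0.05 (edgeR quasi-likelihood test, Benjamini-Hochberg), 2 of the 10 and 8.18% of all genes passed. The genes were chosen with this and the following contrasts known, so nothing is read from these counts or those of the next comparisons. In the 7 WT, KO and KO+ZnO NPs libraries without Y-linked transcripts, the KO values lay further from WT, with a median of -1.87 and 9 of 10 negative, but 0 of 10 passed in that fit (edgeR, 8 at an unadjusted p under 0.05), where 3.74% of all genes did. With DESeq2 on all 12 libraries 5 of 10 passed, beside 13.5% of all genes. Leaving out single libraries gave 1 to 5, the 5 without KO+ZnO NPs replicate 3, beside 1.94% to 10.6% of all genes.

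Set against WT, the WT+ZnO-labelled group differed in both directions over the same genes. *Scd3*, *Elovl3*, *Mc5r* and *Far2* were above WT in all 3 libraries, where 30.1% of all genes tested were, and *Scd4* and *Awat2* were below in all 3, where 29.3% were. The median log2 fold change was 0.98 (all genes 0.06), and 4 of 10 passed the threshold, beside 43.0% of all genes. Without WT replicate 2, 2 passed (31.0% of all genes), as did 2 without WT+ZnO NPs replicate 1 (37.2%). With presence of Y-linked transcripts as a covariate, whose coefficient rests on the KO and KO+ZnO NPs groups, the median was 0.79, the values ran from -1.71 to 1.89, 0 of 10 passed (edgeR, 1 at an unadjusted p under 0.05), and 20.7% of all genes passed. DESeq2 was run without this covariate, where 4 of 10 passed, beside 37.2% of all genes.

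Most members were higher in KO+ZnO NPs than in KO. *Scd3*, *Elovl3*, *Cidea*, *Far2*, *Cyp2g1* and *Mgst1* were above KO in all 3 libraries, beside 17.0% of all genes, and 6 of 10 passed the threshold, beside 14.7% of all genes. The median log2 fold change was 2.34 (all genes 0.01), and it was negative for *Scd4* alone. In the libraries without Y-linked transcripts the median was 3.04 and 4 of 10 passed, beside 12.8% of all genes, with KO represented by replicates 2 and 3 and KO+ZnO NPs by replicates 2 and 3. *Scd3*, *Elovl3* and *Far2* were separate upward in both ZnO NP comparisons. The share of all genes that were so in both was not computed. The number of the 10 that passed fell to 1 without KO replicate 2, to 1 without KO replicate 3, to 4 without KO+ZnO NPs replicate 3, and to 1 when the 6 libraries compared were fitted alone. The share of all genes that passed fell too, to 2.34%, 5.44%, 10.4% and 3.24% in the same fits.

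Between the treated groups, KO+ZnO NPs and WT+ZnO NPs, most members overlapped. Only *Scd3* had all its KO+ZnO NPs libraries below all WT+ZnO NPs libraries, as did 10.8% of all genes tested, and the median log2 fold change was -0.15 (all genes 0.04). The difference of the ZnO NP differences, KO minus WT on the log2 scale, was 3.02 ± 1.03 for *Awat2*, 2.89 ± 1.24 for *Cyp2g1*, 1.92 ± 0.82 for *Scd3*, 1.82 ± 0.85 for *Cidea* and 1.57 ± 0.54 for *Mgst1*. For *Elovl3* it was 0.46 ± 0.83 and for *Scd1* -0.06 ± 0.82, both inside their error. In edgeR 0 of 10 passed for the interaction (5 at an unadjusted p under 0.05), beside 8.68% of all genes, and 0 of 10 between the treated groups (1 unadjusted), beside 3.28%. In DESeq2, 2 of 10 passed for the interaction, beside 16.5% of all genes, and 1 of 10 between the treated groups, beside 11.6%. These differences rest on the groups already described, since the interaction uses WT and KO as controls again. Without KO+ZnO NPs replicate 3 it was 1.64 for *Awat2*, 0.87 for *Scd3*, 0.66 for *Cidea*, 0.80 for *Mgst1* and -0.12 for *Elovl3*. Without WT replicate 3 it was 1.47 for *Cyp2g1*. Between the treated groups, leaving out KO+ZnO NPs replicate 3 moved *Awat2* from 1.29 to -0.08, *Cidea* from 0.13 to -1.01, *Mgst1* from 0.25 to -0.51, *Far2* from -0.54 to -1.46, *Cyp2g1* from -0.47 to -1.63 and *Scd3* from -1.80 to -2.84.

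**Figure D2:**
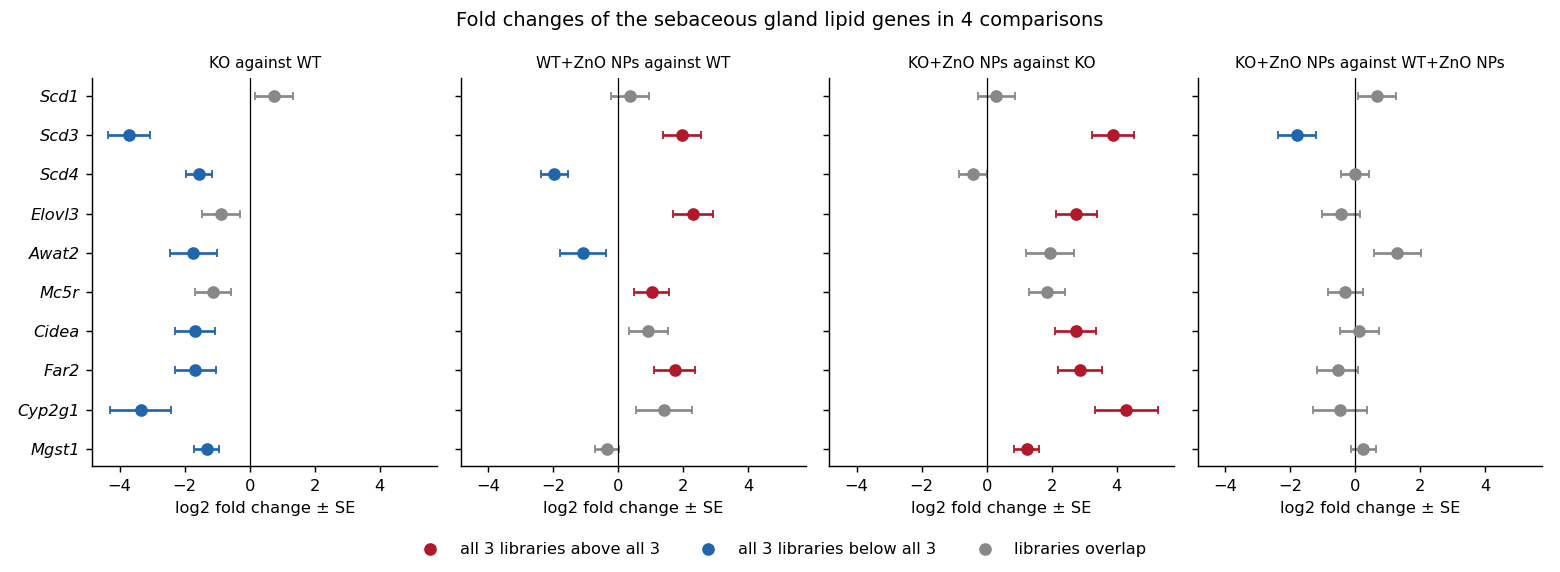
Log2 fold change with its approximate standard error for the 10 genes in 4 comparisons of 3 libraries against 3. Red marks genes whose libraries were all above, blue all below, and grey overlapping. In KO against WT, 7 genes are blue and none red, in KO+ZnO NPs against KO, 6 are red and none blue, and *Scd1* is grey throughout.

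Single libraries carried much of this spread. KO+ZnO NPs replicate 3 was the highest of all 12 libraries for 6 genes and WT+ZnO NPs replicate 1 for 3, while KO replicate 2 was the lowest of all for 7. Within KO+ZnO NPs, replicate 3 was highest for 9 genes and replicate 2 lowest for 9. The standard deviation of log2 CPM within a group had a median over genes of 0.585 in WT, 0.411 in WT+ZnO NPs and 0.591 in KO, but 1.23 in KO+ZnO NPs. KO replicate 1, which held Y-linked transcripts, was the highest KO library for 8 genes.

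Most members varied together from library to library. Among the 8 genes other than *Scd1* and *Scd4*, the 28 pairs had Pearson r between 0.388 and 0.978 (median 0.879) over the 12 libraries, and between 0.564 and 0.972 on deviations from the group means. *Cidea* and *Far2* were the closest pair, at 0.978. The pairs of *Scd1* lay between -0.524 and 0.411, but on deviations from group means its pairs with the genes other than *Scd4* lay between 0.567 and 0.809. *Scd4* had r between -0.524 and 0.23 with every other member. The libraries share groups and these values describe 12 libraries, so no p is given. Leaving out *Scd1* and *Scd4* was decided after the values were seen.

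**Figure D3:**
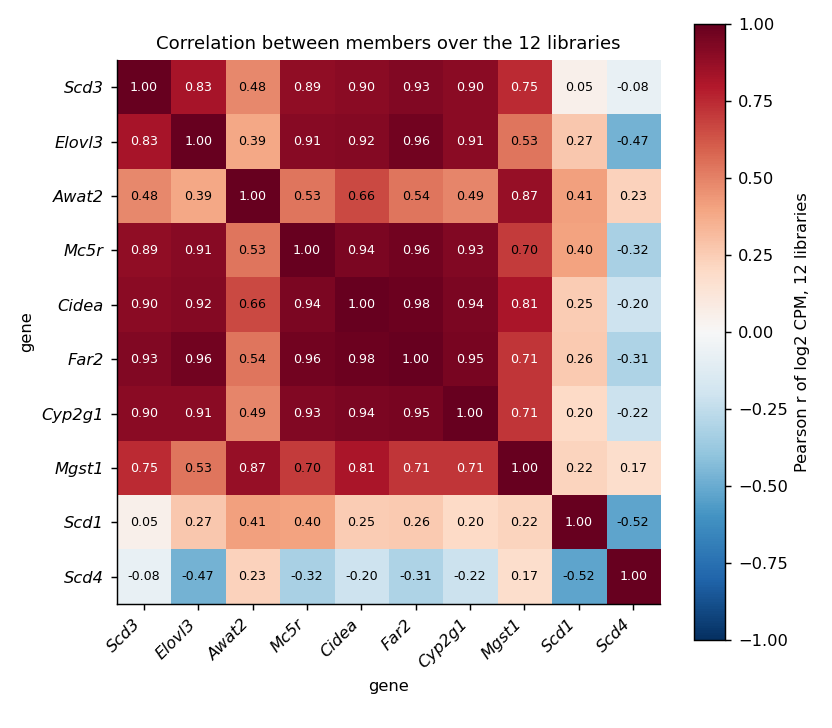
Pearson r of log2 CPM between the 10 genes over the 12 libraries, with both axes listing genes and colour and number giving r. The block of 8 genes at the upper left holds values from 0.388 to 0.978, and the last rows, *Scd1* and *Scd4*, reach at most 0.411 and 0.23.

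Outside the 10 genes, those whose levels ran closest to the members' mean log2 CPM over the 12 libraries were *Cyp3a57* (r = 0.993), *Pnpla5* (0.991), *4930449A18Rik* (0.985), *Clstn3* (0.983), *Mgll* (0.976), *Etfb* (0.976), *Gm5538* (0.972), *Coq3* (0.971), *Acoxl* (0.962) and *Hsd3b6* (0.962). *Pnpla5*, a patatin-like lipase gene, was at 34.5, 18.6 and 42.3 CPM in WT, 12.8, 4.98 and 6.56 in KO, 114, 56.3 and 63.2 in the WT+ZnO-labelled libraries and 39.3, 17.1 and 109.5 in the KO+ZnO-labelled ones. *Mgll*, which encodes monoacylglycerol lipase, was at 570.3, 588 and 774, 353, 142 and 278, 1619.9, 857 and 964 and 614, 465 and 1314 in the same order. Both were lower in every KO library than in any WT library and had KO+ZnO NPs replicate 3 and WT+ZnO NPs replicate 1 as their highest. *Hsd3b6*, of the steroid dehydrogenase family, was at 15.9, 6.74 and 22.1 in WT and 2.47, 1.41 and 3.21 in KO, and at 64.6, 47.2 and 36.6 and 12.5, 9.27 and 57.0 in the WT+ZnO-labelled libraries and KO+ZnO NPs.

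Other genes of sebum and lipid synthesis were tested across all 18822 genes with edgeR. Of 74 such genes in 4 lists (other sebocyte genes, fatty acid synthesis, cholesterol synthesis, neutral lipids and droplets), 72 passed the filter. For KO against WT 3 of them (4.17%) were called, 2 higher and 1 lower, beside 8.18% of all genes, and 1 without WT replicate 1 or without WT replicate 2. With only the 6 libraries compared, 4 were called higher and 9 lower (15.9% of all genes called), and with DESeq2 3 and 3 (13.5% of all genes). For WT+ZnO NPs against WT 32 (44.4%) were called, 21 higher and 11 lower, beside 43.0%, and 21 without WT replicate 2. KO+ZnO NPs against KO gave 15 calls (20.8%), 12 higher and 3 lower, beside 14.7%, KO+ZnO NPs against WT+ZnO NPs gave 1 call, *Scd2* (log2 fold change -0.92 ± 0.21, adjusted p = 0.0485, held in 5 of 20 fits), beside 3.28%, and 11 without KO+ZnO NPs replicate 3, and the interaction gave 4 beside 8.68%. The 15 calls became 1 without KO replicate 2, 2 without KO replicate 3, 3 without KO+ZnO NPs replicate 3 and 1 when only the 6 libraries compared were fitted. Of all genes, 2.34%, 5.44%, 10.4% and 3.24% were called in these fits.

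Among 15 other sebocyte genes, *Fa2h*, which encodes the enzyme that hydroxylates fatty acids, rose in both ZnO NP comparisons. It was at 190.2, 64.1 and 245 CPM in WT and 1579, 670.5 and 782 in the WT+ZnO-labelled libraries (log2 fold change 2.60 ± 0.70, adjusted p = 0.0131 in edgeR), and at 104, 46.2 and 56.3 in KO and 368, 299 and 1507 in the KO+ZnO-labelled ones (3.40 ± 0.73, adjusted p = 0.0164). The calls held in 19 of 20 and 18 of 21 alternative fits. For KO+ZnO NPs against KO, 4 of the 15 rose and 1 fell (33.3% called, beside 14.7% of all genes). *Awat1*, a wax synthase like *Awat2*, was at 31.4, 12.9 and 14.9 in KO and 74.2, 31.6 and 112 in KO+ZnO NPs (log2 fold change 1.88 ± 0.51, adjusted p = 0.0357, held in 15 of 21 fits). *Gata6*, a transcription factor of the sebaceous duct, was at 6.04, 3.58 and 2.20 and 11.3, 11.0 and 16.7 (1.72 ± 0.46, adjusted p = 0.0332, held in 16 of 21), and the fourth was *Apoc1*. *Prdm1* fell by 0.99 on the log2 scale (adjusted p = 0.0497, held in 8 of 21 fits).

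For WT+ZnO NPs against WT, 3 of these 15 rose (*Fa2h*, *Apoc1*, *Lrig1*) and 3 fell (40.0% called, beside 43.0% of all genes). Those that fell were *Plin2*, a droplet coat gene, *Dgat2*, which makes triacylglycerol, and *Pparg*, the nuclear receptor that drives lipid cell maturation, and all 3 are also used by adipocytes. *Pparg* was at 81.2, 105 and 91.2 CPM in WT and 48.1, 42.7 and 27.9 in the WT+ZnO-labelled libraries (log2 fold change -1.22 ± 0.45, adjusted p = 0.0468), a call that held in only 7 of 20 alternative fits. *Dgat2* had -1.44 ± 0.53 (adjusted p = 0.0482, held in 8 of 20). *Plin2* also fell in KO against WT, from 707, 841 and 545 to 161, 183 and 195 CPM (-1.96 ± 0.36, adjusted p = 0.0111, held in 20 of 21 fits), and was the only one of the 15 called in that comparison.

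Of 22 cholesterol synthesis genes, 14 (63.6%, beside 43.0% of all genes) rose in WT+ZnO NPs against WT and the other 8 were not called, with a median log2 fold change of 1.14, beside 0.06 for all genes. *Lss*, the lanosterol synthase, went from 50.5, 40.5 and 49.0 to 239.6, 153 and 186 CPM (2.05 ± 0.28, adjusted p = 0.000296), which held in 20 of 20 alternative fits. *Tm7sf2* and *Mvd* rose by 1.61 ± 0.33 and 1.51 ± 0.42. For KO+ZnO NPs against KO 5 of 22 rose and 1, *Sc5d*, fell (27.3% called, beside 14.7%), with a median of 0.36. *Msmo1* and *Tm7sf2* rose by 1.60 ± 0.45 and 1.28 ± 0.33. *Srebf2*, the regulator of this pathway, rose in KO against WT (0.56 ± 0.12, adjusted p = 0.0249, held in 14 of 21 fits).

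Fatty acid synthesis genes were called less uniformly. In WT+ZnO NPs against WT 4 of 19 rose and 2 fell (31.6% called, beside 43.0% of all genes). *Fads2*, a desaturase for polyunsaturated acids, rose (1.78 ± 0.49, adjusted p = 0.0135), as did *Elovl5* (1.54 ± 0.41, adjusted p = 0.0123). *Acsl1* (-1.82 ± 0.47, adjusted p = 0.0106) and *Elovl1* (-1.76 ± 0.25, adjusted p = 0.000384) fell. In KO+ZnO NPs against KO *Elovl5* rose (1.80 ± 0.42, adjusted p = 0.0206), *Elovl4* rose (2.0 ± 0.60, adjusted p = 0.0483, held in 7 of 21 fits) and *Elovl1* fell (-0.99 ± 0.24, adjusted p = 0.0261). *Fasn*, the fatty acid synthase, was not called, with 0.44 ± 0.65 (adjusted p = 0.602) for WT+ZnO NPs against WT and 0.57 ± 0.65 (adjusted p = 0.576) for KO+ZnO NPs against KO. *Srebf1*, its regulator, had 0.33 ± 0.22 (adjusted p = 0.246) and 0.01 ± 0.22 (adjusted p = 0.99). *Fasn* and *Srebf1* were picked for their role after their values were seen.

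*Scd2*, the desaturase of most tissues and a relative of the members, was at 142, 138 and 162 CPM in WT and 277, 320.5 and 344 in KO (1.09 ± 0.22, adjusted p = 0.0147), and at 303, 406 and 522 in the WT+ZnO-labelled libraries and 225, 260.0 and 166 in the KO+ZnO-labelled ones. Its interaction was -2.01 ± 0.30 (adjusted p = 0.00701, held in 18 of 19 fits). *Mgst3*, a relative of *Mgst1*, fell in KO against WT (-0.74 ± 0.17, adjusted p = 0.0299, held in 16 of 21 fits).

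In the list of triacylglycerol, wax ester and droplet genes, 8 of 22 fell and the other 14 were not called in WT+ZnO NPs against WT (36.4% called, beside 43.0% of all genes). *Cidec*, the relative of *Cidea* used by white fat, went from 615, 711 and 934 to 91.6, 175 and 114 CPM (-2.57 ± 0.80, adjusted p = 0.0239), and *Pnpla2*, which encodes the main triacylglycerol lipase, from 531, 568 and 689.9 to 124, 202 and 129 (-1.97 ± 0.44, adjusted p = 0.00479). In KO+ZnO NPs against KO *Awat1* and *Plin5* rose (1.59 ± 0.45 for *Plin5*, adjusted p = 0.039, held in 11 of 21 fits).

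Among 15 tested hormone and nuclear receptor genes, 9 were called in WT+ZnO NPs against WT, 6 higher and 3 lower (60.0%, beside 43.0% of all genes). *Mc1r*, the melanocortin receptor of pigment cells and a relative of *Mc5r*, went from 0.252, 0.351 and 0.383 to 3.76, 13.2 and 9.22 CPM (4.71 ± 0.55, adjusted p = 0.000133). *Nr1h3*, a liver X receptor, fell from 54.6, 61.3 and 54.2 to 16.8, 11.4 and 12.9 (-2.05 ± 0.32, adjusted p = 0.000723) and was lower in KO too (-1.29 ± 0.32, adjusted p = 0.0341, held in 13 of 21 fits). *Fgfr2*, a growth factor receptor needed for sebaceous glands, rose in WT+ZnO NPs against WT (1.59 ± 0.15, adjusted p = 5.01e-05) and in KO against WT (1.11 ± 0.15, adjusted p = 0.00266, held in 21 of 21 fits). *Srd5a1*, which activates testosterone, rose in WT+ZnO NPs against WT (1.66 ± 0.26, adjusted p = 0.000675).

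Markers of other skin compartments moved with the groups. Growing hair follicle markers (13 of 14 listed genes, *Krt85* not analysed here) summed to 14.3, 8.91 and 16.5 CPM in WT and 1297, 4597 and 5941 in the WT+ZnO-labelled libraries, and all 13 rose. They summed to 12543, 42.5 and 3691 in KO and 9356, 6754 and 283 in the KO+ZnO-labelled ones, and 11 of 13 rose in KO against WT. Within WT and within KO, the mean log2 CPM of the 10 members had the same order as the follicle sums, at 5.90, 5.29 and 6.24 in WT and 4.77, 3.62 and 4.24 in KO. Within WT+ZnO NPs the order was the opposite, at 7.003, 6.26 and 6.24. Within KO+ZnO NPs the means were 5.92, 5.22 and 7.27, and replicate 3 had the lowest follicle sum and the highest mean. The part of hair growth in these differences was not tested.

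White fat markers summed to 11476, 15912 and 17127 CPM in WT, 3294, 5103 and 3322 in WT+ZnO NPs, 9416, 5728 and 9027 in KO and 11879.9, 2348 and 12219 in KO+ZnO NPs, and 8 of 13 fell in WT+ZnO NPs against WT, *Adipoq* from 464, 452 and 674 to 49.2, 125 and 75.6. KO+ZnO NPs replicate 2, the library lowest in *Scd1*, was also the lowest in fat markers, and its *Adipoq* was at 6.70 CPM. *Scd1*, *Dgat2*, *Plin2*, *Cidec*, *Pnpla2* and *Pparg* are used by fat cells as well as sebocytes. Leukocyte markers summed to 835, 894 and 762 in WT and 41.3, 101 and 37.8 in WT+ZnO NPs, and to 290.2, 811 and 509 in KO and 102, 138 and 68.0 in KO+ZnO NPs, with 3 of 6 and 5 of 6 lower. Of 5 keratinocyte markers, 2 rose and 2 fell in WT+ZnO NPs against WT. *Krt1* was at 1559, 996 and 1199 CPM in WT, 306, 324 and 236 in WT+ZnO NPs, 2528, 6613 and 3124 in KO and 2639, 2420.1 and 585 in KO+ZnO NPs, with -2.12 ± 0.53 for WT+ZnO NPs against WT (adjusted p = 0.00892) and 2.71 ± 0.54 between the treated groups (adjusted p = 0.0362, held in 9 of 20 fits). *Krt10* fell in WT+ZnO NPs against WT (-2.31 ± 0.50, adjusted p = 0.00436), while *Krt5* (0.94 ± 0.28, adjusted p = 0.0181) and *Trp63* (1.62 ± 0.27, adjusted p = 0.001) rose. Muscle markers summed to 4653, 5225 and 6204 in WT, 20103, 4397 and 8803 in WT+ZnO NPs, 3912, 1124 and 2042 in KO and 2455, 10406 and 13357 in KO+ZnO NPs. The libraries highest in muscle markers, WT+ZnO NPs replicate 1 and KO+ZnO NPs replicate 3, were also those with the highest mean log2 CPM of the members. The part of these shifts in the members' levels was not tested.

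**Figure D4:**
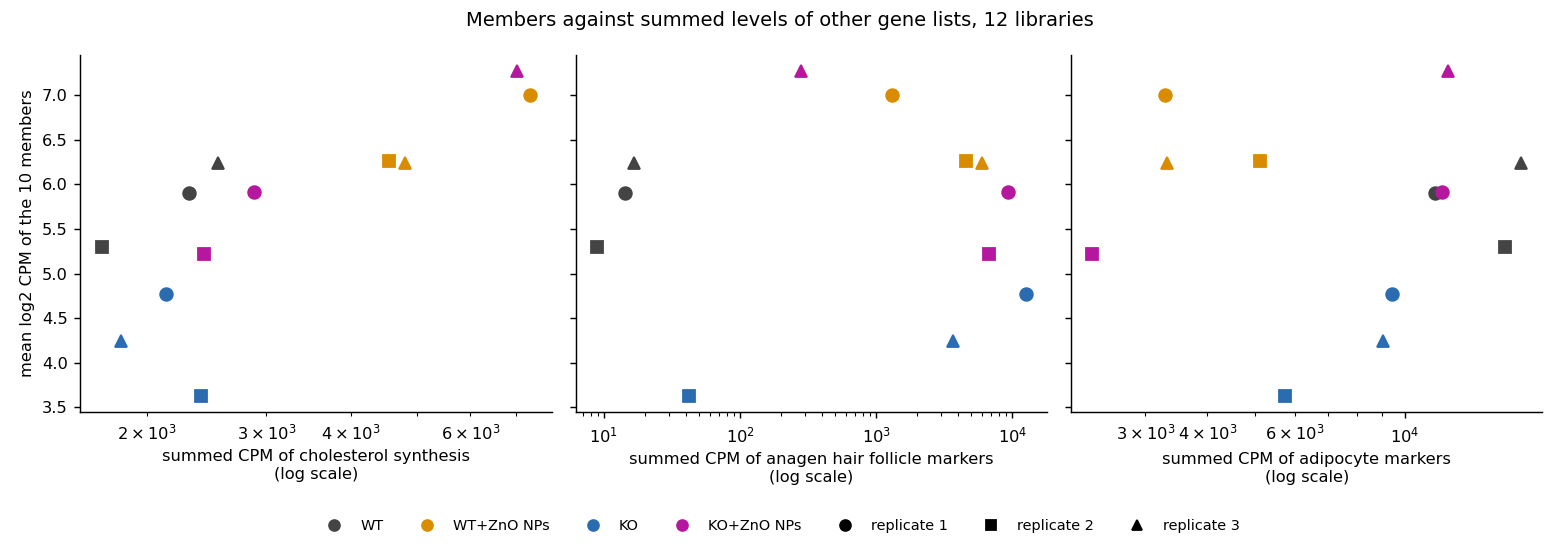
Mean log2 CPM of the 10 genes (vertical) against the summed CPM (horizontal, log scale) of cholesterol synthesis genes, growing hair follicle markers and adipocyte markers in the 12 libraries, coloured by group with shape as replicate number. WT+ZnO NPs replicate 1 and KO+ZnO NPs replicate 3 are highest in both the members and the cholesterol genes (7352 and 7024 CPM), while the highest follicle sum, KO replicate 1, goes with a member mean of 4.77.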

How the data were processed

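RNA from full-thickness mouse skin was sequenced in 12 libraries, 3 mice for each of 4 groups. The authors deposited raw read counts per gene, not normalised. Their methods name STAR v2.5.1b and HTSeq v0.6.0, whereas the submitters' processing notes name HISAT2 2.0.5 and mm10. The annotation release and strand setting are not given in the sources used here, so genes overlapping on opposite strands may share reads. Gene names came from GENCODE M21 on GRCm38, which matched 52403 of 52636 identifiers. After edgeR's filter on low counts (filterByExpr) 18822 genes were fitted with TMM factors and edgeR 4.0.16 (R 4.3.3) quasi-likelihood tests over all 12 libraries, with Benjamini-Hochberg adjustment. Log2 CPM used a prior count of 2. Standard errors of fold changes are approximate.

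The 10 members and all gene lists were chosen with earlier results of these data known. Named genes outside the members were, per list and comparison, up to 4 called genes with the largest change and a mean of at least 1 CPM, and the 10 genes whose log2 CPM correlated best with the members' mean. *Fasn*, *Srebf1*, *Sc5d*, *Apoc1*, *Lrig1* and the cell markers named were added for their role after their values were seen. Some genes that this rule names are not reported here. Labels were the only source of groups. Alternatives were other scaling, DESeq2 1.42.0, other filters, a replicate block, a Y-linked covariate, fewer libraries and leaving out each library. The fit was tested on simulated data. Promoter sequences are RefSeq's, GRCm38.p6, aligned with Biopython 1.88.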

Additional observations from a re-analysis of the deposited data

Results flagged for a closer look

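Among the listed lipid, hormone and receptor genes and relatives of the members, 8 of 87 tested (9.2%, beside 8.68% of all genes) had a ZnO NP difference that itself differed between KO and WT (interaction term, edgeR, adjusted p below 0.05). *Scd2*, a desaturase, had -2.01 on the log2 scale (adjusted p = 0.00701, edgeR), from 1.48 for WT+ZnO NPs against WT and -0.53 for KO+ZnO NPs against KO, and passed in 18 of 19 alternative fits. *Mc1r*, the melanocortin receptor of pigment cells, had -2.84 on the log2 scale (adjusted p = 0.0346, edgeR), from 4.71 for WT+ZnO NPs against WT and 1.87 for KO+ZnO NPs against KO, and passed in 8 of 18 alternative fits. *Nr1h3*, a liver X receptor, had 1.86 on the log2 scale (adjusted p = 0.0311, edgeR), from -2.05 for WT+ZnO NPs against WT and -0.19 for KO+ZnO NPs against KO, and passed in 8 of 19 alternative fits. *Hsd17b7*, of cholesterol synthesis, had -1.38 on the log2 scale (adjusted p = 0.0254, edgeR), from 1.36 for WT+ZnO NPs against WT and -0.02 for KO+ZnO NPs against KO, and passed in 14 of 19 alternative fits. *Mgst3*, a glutathione transferase relative, had 1.02 on the log2 scale (adjusted p = 0.0318, edgeR), from -0.15 for WT+ZnO NPs against WT and 0.86 for KO+ZnO NPs against KO, and passed in 9 of 19 alternative fits. *Fgfr2*, a growth factor receptor, had -0.99 on the log2 scale (adjusted p = 0.0228, edgeR), from 1.59 for WT+ZnO NPs against WT and 0.59 for KO+ZnO NPs against KO, and passed in 15 of 19 alternative fits. *Srebf2*, the sterol regulator, had -0.81 on the log2 scale (adjusted p = 0.0237, edgeR), from 0.67 for WT+ZnO NPs against WT and -0.14 for KO+ZnO NPs against KO, and passed in 13 of 19 alternative fits. *Plin3*, a droplet coat gene, had 0.80 on the log2 scale (adjusted p = 0.0318, edgeR), from -0.82 for WT+ZnO NPs against WT and -0.02 for KO+ZnO NPs against KO, and passed in 8 of 19 alternative fits. The comparison of WT+ZnO NPs with WT sets libraries with Y-linked transcripts against libraries without them. With these as a covariate none of the 8 passed, where 0.664% of all genes did. Over all alternative fits, the covariate fit included, *Scd2* ran from -2.185 to -1.797, *Mc1r* from -3.195 to -2.398 and *Nr1h3* from 1.568 to 2.184. *Hsd17b7* ran from -1.566 to -1.218, *Mgst3* from 0.846 to 1.252 and *Fgfr2* from -1.148 to -0.837. *Srebf2* ran from -0.963 to -0.743 and *Plin3* from 0.649 to 0.88. Among the cell type markers, 9 of 13 growing hair follicle markers, 2 of 6 leukocyte markers and 1 of 13 adipocyte markers also passed for the interaction.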

How the results depend on the processing

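Calls among the 72 tested sebocyte and lipid genes outside the 10 members depended on the fit. Of 82 called results of genes named by rule outside the members, 22 kept their call and 0 changed sign over the alternatives run for them. For KO against WT the 3 calls became 6 with DESeq2, 13 with only the libraries compared and 1 with only libraries without Y-linked transcripts, and 1 to 5 when one library was left out. For WT+ZnO NPs against WT, 32 became 21 to 40 when one was left out. For KO+ZnO NPs against KO, 15 became 1 with only the libraries compared, 9 without Y-linked libraries, and 1 to 15 when one was left out. For KO+ZnO NPs against WT+ZnO NPs, 1 became 3 with library size only, 7 with DESeq2 and 2 with a minimum of 10 counts. It became 0 with only the libraries compared, without a filter and with the Y-linked covariate (edgeR, 8, 18 and 17 genes at an unadjusted p under 0.05), and 0 to 11 when one was left out, 11 without KO+ZnO NPs replicate 3. For the interaction, 4 became 7 with library size only, 15 with DESeq2, 2 without a filter, 11 with a minimum of 10 counts, 0 with the Y-linked covariate (24 at an unadjusted p under 0.05), and 1 to 11 when one was left out. The causes were not tested. With the replicate block the 5 counts were 4, 33, 11, 1 and 5. The labels share replicate numbers, but of 18 same-numbered pairs across groups only 4 had correlated deviations over 0.1 (r from -0.343 to 0.429, median 0.034), so the numbers were not taken as pairs. The interaction could not be fitted with only the libraries compared. The smallest difference that 3 libraries per group could show was not tested.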
